A study of Bos taurus with 6 samples.

Results

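The transcriptomes of bovine embryos in which NOTCH1 had been targeted by a small interfering RNA were compared directly with those of embryos in which RBPJ had been targeted. The comparison uses the 4 knockdown libraries of the 6 in the study, 2 per knockdown. It covers the named genes whose mean over all 6 libraries was at least 10, which were 12070 of the 15314 distinct gene symbols in the deposited table. All embryos were produced by in vitro fertilization, had received an injection, and were collected as late morulae on day 6. The 2 NOTCH1 KD libraries came from embryos given the NOTCH1 small interfering RNA, and the 2 RBPJ KD libraries from embryos given the RBPJ one. The 2 control libraries, from embryos injected with a nonspecific small interfering RNA, do not enter the contrast. They inform the estimate of the spread, and their values stand beside those of named genes. No uninjected group was part of these data. Each library was made from a pool of 15 whole embryos, so a knockdown is an average over embryos and over the outer and inner cells of the morula. In such bulk samples fewer cells of a type and less RNA per cell cannot be told apart. The labels do not state whether the replicates are separate batches of oocytes. The p-values therefore measure how far these libraries spread, which may be a technical spread.

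NOTCH receptors sit in the cell membrane and are activated by ligands on neighbouring cells. Ligand binding leads to 2 cleavages, by an ADAM protease and by gamma-secretase, which free the intracellular part of the receptor. That part enters the nucleus and binds RBPJ, a DNA-binding protein, together with Mastermind coactivators, and genes such as the HES and HEY repressors are then transcribed. Without activated NOTCH, RBPJ recruits corepressors to the same sites. NOTCH1 is thus 1 of several receptors that feed into RBPJ, and RBPJ also acts without NOTCH1. At the morula stage the outer cells polarize and start towards the trophectoderm, the lineage that gives rise to the placenta, while inner cells give rise to the inner cell mass and later the hypoblast. The comparison asks where loss of a receptor and loss of the DNA-binding effector of the same pathway leave different transcript levels.

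Values were judged to be scaled counts, that is estimated read counts divided by the authors' scaling factor for each library. Library totals lay between 10365700 and 10815600 scaled counts. The approximate depth, estimated from the spacing of the low values, was 9650000 to 13600000 reads, with RBPJ KD replicate 1 the deepest. Embryonic markers were present in all 6 libraries: POU5F1, a pluripotency factor, lay between 10911 and 12942, and CDX2, a trophectoderm factor, between 624 and 976. A log2 difference always means NOTCH1 KD minus RBPJ KD on the log2(scaled count + 1) scale, so a positive value is a higher level in the NOTCH1 KD. A gene was called when its limma p, adjusted by Benjamini-Hochberg over all 12070 genes, lay below 0.05. Calls and p-values refer to the model without a replicate block.

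RBPJ itself was the gene that separated the knockdowns. It had 361 and 399.6 scaled counts in the NOTCH1 KD and 121 and 94.5 in the RBPJ KD, against 447 and 391 in the control. Both NOTCH1 KD libraries lay near the control, and the RBPJ KD libraries lay far below all others. The means were 381 ± 27.0 (SD, n = 2) in the NOTCH1 KD and 108 ± 18.5 (SD, n = 2) in the RBPJ KD, a ratio of 3.54. The log2 difference was 1.82 with a standard error of 0.18 and a 95% interval of 1.43 to 2.21 (limma, adjusted p = 0.00321). RBPJ was the single called gene of the comparison, 0.00829% of the genes tested, which is also the share called in the higher direction. The share called in the lower direction was 0%, a count of 0 genes by limma, beside 221 at an unadjusted p below 0.05. With the replicate number as a block 15 genes were called, 4 higher and 11 lower, and the last section names them. The labels do not say that a number marks a shared batch. RBPJ was no longer called when limma's variances were moderated without a trend on level (limma, adjusted p = 0.318) and when either NOTCH1 KD library was left out (limma, adjusted p = 0.0937 without replicate 1 and 0.0985 without replicate 2). In those last fits the remaining NOTCH1 KD library is assumed to vary like the other groups, and the log2 difference of RBPJ was 1.89 and 1.75.

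NOTCH1 did not separate the knockdowns to the same degree. It had 48.0 and 49.5 in the NOTCH1 KD and 50.0 and 125 in the RBPJ KD, with 69.6 and 139.8 in the control. RBPJ KD replicate 1 thus held about as little NOTCH1 transcript as the libraries in which NOTCH1 was targeted, and replicate 2 lay between the controls. The log2 difference was -0.69, with 0.42 as its standard error and an interval of -1.59 to 0.22 (limma, adjusted p = 0.999). The difference in NOTCH1 level between the groups therefore rests on RBPJ KD replicate 2.

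**Figure D1:**
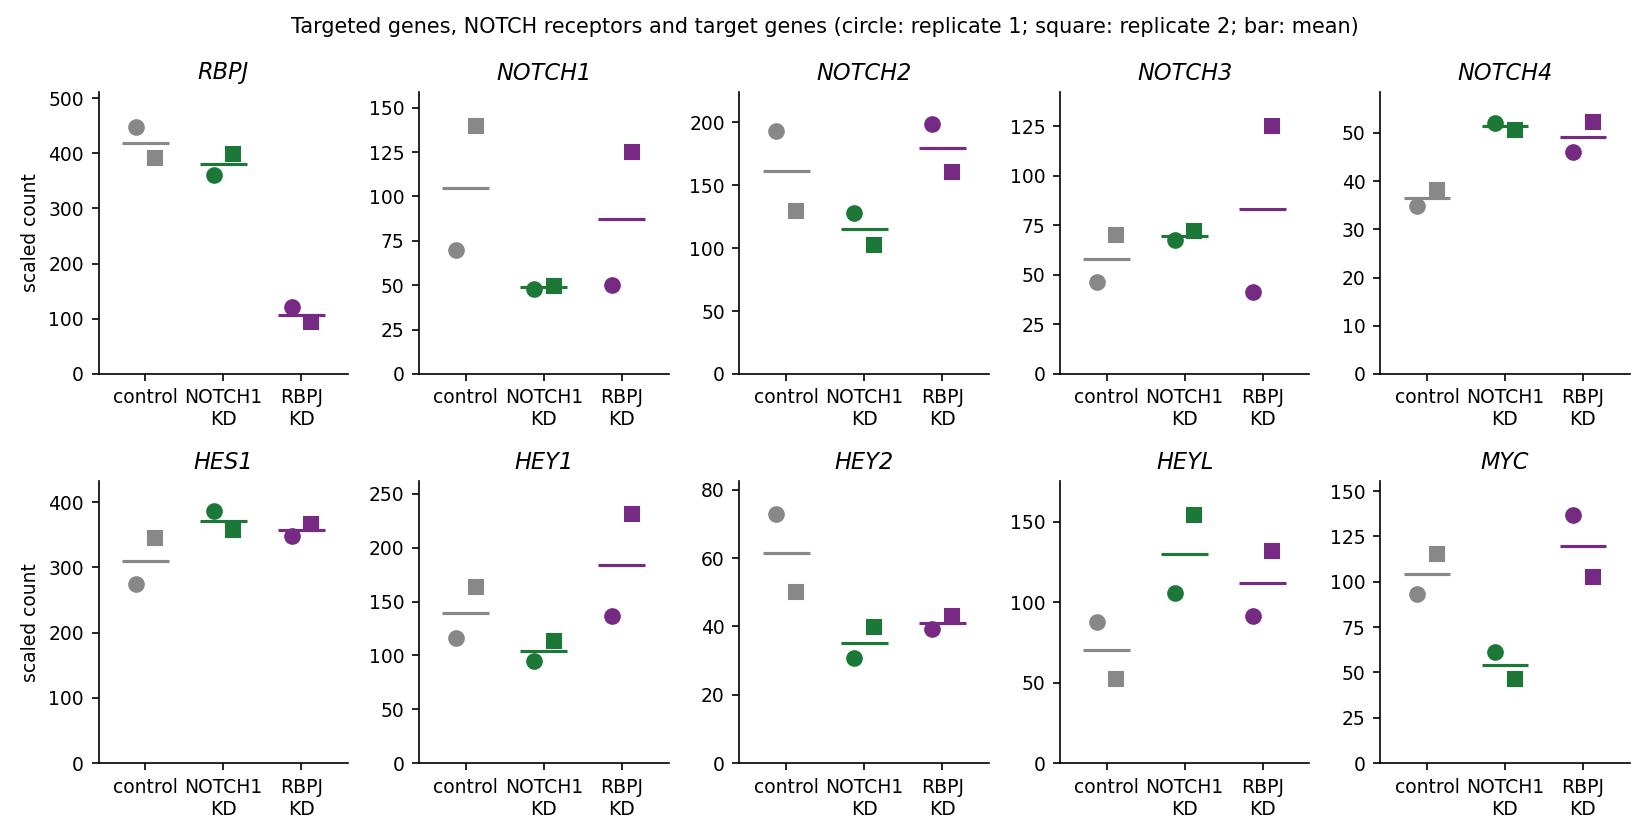
Scaled counts (vertical axes, from 0) of RBPJ, the 4 NOTCH receptors and 5 NOTCH target genes in the control, NOTCH1 KD and RBPJ KD libraries, with a circle for replicate 1, a square for replicate 2 and a bar for the mean. RBPJ is low only in the RBPJ KD, NOTCH1 is at 50.0 in RBPJ KD replicate 1, and MYC lies lower in both NOTCH1 KD libraries than in the other 4.

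The other receptors showed no called difference. NOTCH2 had 128 and 102 in the NOTCH1 KD and 199 and 160.4 in the RBPJ KD, a log2 difference of -0.64 with an interval of -1.16 to -0.11 and an unadjusted p of 0.021. The groups did not overlap, and the control, at 193 and 129, spanned most of the range between them. NOTCH3 had 67.5 and 72.1 in the NOTCH1 KD and 41.5 and 125 in the RBPJ KD, where the replicates lay on both sides of the NOTCH1 KD. NOTCH4 had 52.1 and 50.6 in the NOTCH1 KD and 46.1 and 52.3 in the RBPJ KD, with both groups above the control values of 34.8 and 38.2. The ligands overlapped or nearly so. JAG2, a Jagged ligand, had 1471 and 1346 against 1267 and 1393, and JAG1 had 260.2 and 320.5 against 253 and 246. DLL3, a divergent Delta ligand that acts mainly inside the producing cell, had 103 and 75.4 against 76.1 and 87.3, and the related DLK2 had a log2 difference of -0.12. DLL1, DLL4, DLK1 and DNER had means below 10 and were not tested.

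The enzymes that process the receptor gave small differences. Of 13 tested cleavage and modification enzymes of 15 listed, 8 were higher and 5 lower by sign, none was called, and the median log2 difference was 0.05, beside 0.01 over all genes. By sign 52.7% of all genes were higher. FURIN, the protease that cleaves the receptor during its maturation, had 3521 and 3553 in the NOTCH1 KD and 3011 and 2921 in the RBPJ KD, a log2 difference of 0.25 with an interval of -0.02 to 0.53. NCSTN, the nicastrin subunit of gamma-secretase, had a log2 difference of 0.15 and PSEN2 had 0.10. ADAM10 and ADAM17 had 0.03 and 0.05. Among 13 regulators of receptor and ligand turnover, 5 were higher and 8 lower by sign with none called, and the median of -0.05 was 0.04 without RBPJ KD replicate 1. FBXW7, which marks the intracellular part of NOTCH for degradation, had 391 and 449 against 528 and 497. MIB2, a ubiquitin ligase for ligands, lay the other way, with 973 and 939.8 against 816 and 787.

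The list of RBPJ coactivators and corepressors had 25 tested genes. It also holds KYAT1, a metabolic enzyme that is not a cofactor of RBPJ. The groups did not overlap in 3 genes with the NOTCH1 KD higher and 5 with it lower, KYAT1 among the latter. This was about the 33% seen over all genes in either direction. SPEN, the corepressor scaffold that RBPJ binds, had 908 and 998 in the NOTCH1 KD, 1251 and 1235 in the RBPJ KD, and 913 and 1078 in the control. Here the NOTCH1 KD lay at the control level and the RBPJ KD above it, with a log2 difference of -0.38 and an interval of -0.65 to -0.12 (limma, adjusted p = 0.999). L3MBTL3, another RBPJ-binding corepressor, had 126 and 152 against 208 and 182, and the control at 226 and 204 was near the RBPJ KD. The Mastermind gene MAML1 had 373 and 380.0 against 409 and 309, and the acetyltransferase EP300 had 5691 and 6142 against 6217 and 5984. Of the 25 members 10 were higher and 15 lower by sign, none was called, and the median was -0.03 (0.00 without RBPJ KD replicate 1).

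NOTCH target genes included no called member. Of 22 listed targets 16 were tested, since HES4, HES5, NRARP, SOX9, DTX1 and BCL2 had means below 10. Of the 16, 6 were higher and 10 lower by sign, and the groups did not overlap in 2 and 5 of them. Over all genes, the groups did not overlap in 33%, in 17.5% with the NOTCH1 KD higher and in 15.5% with it lower. The median of the targets was -0.19. It ran from -0.32 without NOTCH1 KD replicate 2 to -0.03 without NOTCH1 KD replicate 1, and it was 0.01 among targets with a mean of at least 100. Against the control, the same targets had a median of -0.13 in the NOTCH1 KD and 0.15 in the RBPJ KD, and these medians share the control libraries.

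MYC, a growth regulator and a direct NOTCH target in several tissues, had the smallest p among the targets. It had 61.2 and 46.5 in the NOTCH1 KD, 137 and 102 in the RBPJ KD, and 93.0 and 115 in the control. The NOTCH1 KD libraries lay below the other 4, and the RBPJ KD libraries lay around the control. The log2 difference was -1.13 with a standard error of 0.27 and an interval of -1.72 to -0.55 (limma, adjusted p = 0.823). HEY1, a repressor of the hairy family, had 94.9 and 113 in the NOTCH1 KD and 137 and 231 in the RBPJ KD, with the control at 116 and 163. Its log2 difference was -0.77 with an interval of -1.37 to -0.18 and an unadjusted p of 0.0147, and RBPJ KD replicate 2 was its highest library.

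The related HES1, HEY2 and HEYL overlapped between the knockdowns. HES1 had 387 and 357 in the NOTCH1 KD and 348 and 367 in the RBPJ KD, a log2 difference of 0.06 with an interval of -0.29 to 0.41. HEY2 had 30.7 and 39.8 against 39.2 and 43.1, and all 4 values lay below the control values of 72.9 and 50.2. HEYL had 106 and 154 against 91.5 and 132, and all 4 lay above the control values of 87.9 and 52.3. For these 2 genes the knockdowns thus lay on the same side of the control, with log2 differences between them of -0.23 and 0.22. HES2 had 61.3 and 49.5 against 73.8 and 85.2 without overlap, and HES7 ranged from 2.17 to 62.5 over the 6 libraries, with a standard error of 1.02.

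The ID genes, which encode inhibitors of basic helix-loop-helix factors, went different ways. ID1 had 60.3 and 74.3 in the NOTCH1 KD and 108 and 97.5 in the RBPJ KD, with the control at 57.1 and 74.1, so that the RBPJ KD stood apart from both other groups at a log2 difference of -0.61. ID3 had 7.14 and 35.6 against 9.23 and 24.7, below the control values of 47.6 and 51.0 in all 4 libraries. ID2 had a log2 difference of 0.27. GATA3, a trophectoderm factor as well as a NOTCH target in other cells, had 1018 and 856 in the NOTCH1 KD, 737 and 391 in the RBPJ KD and 577 and 515 in the control. Both NOTCH1 KD libraries lay above the other 4, and the RBPJ KD libraries lay on both sides of the control. Its log2 difference was 0.80, standard error 0.23 (limma, adjusted p = 0.999). It was 1.26 without RBPJ KD replicate 1 and 0.34 without RBPJ KD replicate 2, fits that each leave a single RBPJ KD library. The cell cycle inhibitor CDKN1A, CCND1, TCF3 and HEXIM1 overlapped, with log2 differences of -0.32, 0.37, -0.05 and -0.15.

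Across all genes the knockdowns lay about as far apart as their own replicates by the median difference, and somewhat farther by the number of genes more than 2-fold apart. NOTCH1 KD replicates 1 and 2 were more than 2-fold apart in 393 genes, and RBPJ KD replicates 1 and 2 in 428. The 4 pairs of libraries from different groups were that far apart in 352, 365, 383 and 624 genes. The highest count was that of NOTCH1 KD replicate 1 and RBPJ KD replicate 2, and the other 3 lay below both counts within groups. The mean count was 431 between groups and 410.5 within, a ratio of 1.05. Among genes averaging at least 100 it was 1.32 (35.8 against 27 genes), and at a pseudocount of 10 it was 1.21. The median absolute log2 difference was 0.175 and 0.182 within the groups and 0.157 to 0.204 between them. By this measure the mean over the 4 pairs between groups was 0.978 times the mean over the 2 pairs within. The 2 pairs within groups join different replicate numbers. The 2 pairs between groups that do so had a mean of 0.187, 1.04 times the 0.179 within. By count the same 2 pairs between groups, at 624 and 352 genes, had a mean of 488, beside 410.5 within. Among genes averaging at least 100 these means were 51.5 and 27. These pairs share libraries, so no test was made.

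**Figure D2:**
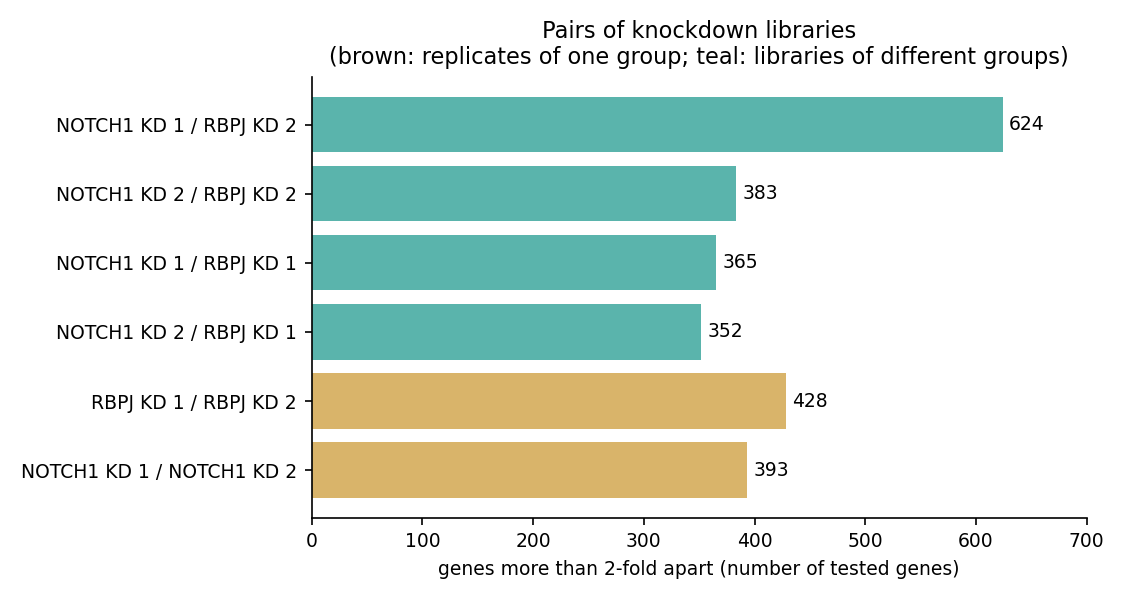
Number of tested genes more than 2-fold apart (horizontal axis, from 0) for each of the 6 pairs of knockdown libraries, with pairs of replicates in brown and pairs from different groups in teal. The replicates of a group are 393 and 428 genes apart, and 3 of the 4 pairs between groups have 352 to 383.

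The data bounded most differences at higher levels and few at low levels. The 95% interval of the log2 difference lay within a 2-fold change in either direction for 9547 of 12070 genes, or 79.1%, and within a 1.5-fold change for 54.3%. Of the 2347 genes with a mean of at least 1000, 99.8% were bounded within 2-fold and 96.8% within 1.5-fold. Of the 3619 genes with a mean of 10 to under 100, 34.7% were bounded within 2-fold, and the median standard error there was 0.39. An estimate beyond 2-fold was seen in 146 genes, or 1.21%, of which 137 had a mean under 100 and 9 a mean of 100 to under 1000. No gene with a mean of at least 1000 had one. These intervals are those of single genes and are not adjusted for their number.

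**Figure D3:**
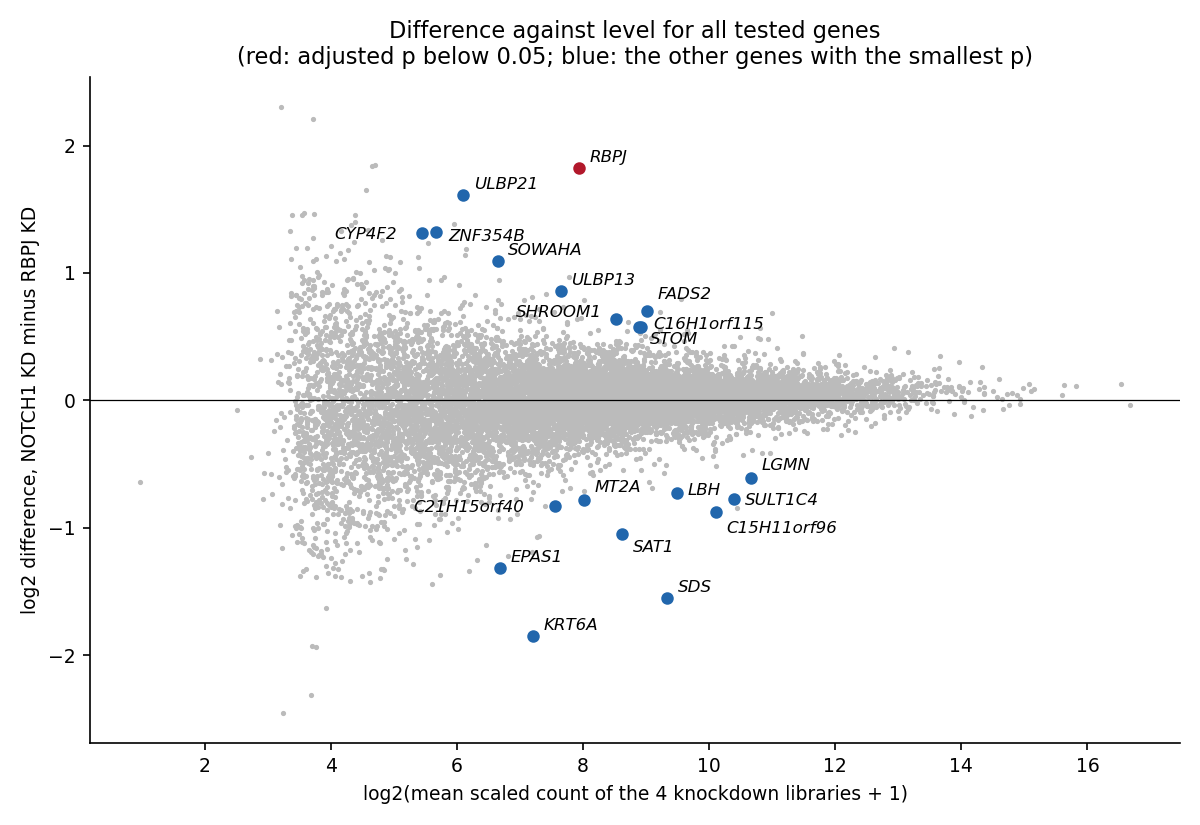
Log2 difference, NOTCH1 KD minus RBPJ KD (vertical axis), against log2 of the mean scaled count of the 4 knockdown libraries plus 1 (horizontal axis), with a point for each of the 12070 tested genes. RBPJ (red) at 1.82 is called, the other 19 genes with the smallest p in either direction (blue) are not, and the grey points spread more widely at low levels.

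At an unadjusted p below 0.05 limma had 439 genes, 3.64% of those tested, with 218 higher in the NOTCH1 KD (1.81%) and 221 lower (1.83%). The 7 genes next to RBPJ by p all lay lower in the NOTCH1 KD, and SDS came first. SDS, serine dehydratase, which converts serine to pyruvate, had 1108 and 806 in the RBPJ KD, 235 and 438 in the NOTCH1 KD, and 358 and 424 in the control. The RBPJ KD stood above all other libraries. The log2 difference of SDS was -1.55, standard error 0.25 (limma, adjusted p = 0.22). It was -2.00 without NOTCH1 KD replicate 2 and -1.11 without NOTCH1 KD replicate 1, fits that each leave a single NOTCH1 KD library. LGMN, the lysosomal protease legumain, had the same arrangement, with 1800.4 and 2109.8 in the RBPJ KD, 1192 and 1368 in the NOTCH1 KD, and 1293 and 1320.2 in the control. Its log2 difference was -0.61, standard error 0.12 (limma, adjusted p = 0.645). C15H11orf96 also had its 2 highest libraries in the RBPJ KD, at 1372 and 1492, with 849.5 and 715 in the NOTCH1 KD and 792 and 1214 in the control.

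A second arrangement was a NOTCH1 KD below the control and an RBPJ KD near it. MT2A, a metallothionein that binds zinc and copper, had 186 and 189 in the NOTCH1 KD, 285 and 369.5 in the RBPJ KD, and 376 and 352 in the control. C21H15orf40 had 137 and 129 in the NOTCH1 KD, 209 and 270.1 in the RBPJ KD and 268 and 246 in the control. SAT1, which acetylates polyamines for their breakdown, had 234 and 275 against 618 and 445, with the control at 389 and 523. In these 3 genes the NOTCH1 KD libraries were the lowest of all 6. SULT1C4, a sulfotransferase, had 1077 and 919 against 1797 and 1617, with a control that ran from 1265 to 1802. The log2 differences of these 4 genes lay between -1.05 and -0.78, and none was called (limma, adjusted p = 0.633 to 0.768).

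In a further 3 of these genes the control lay between the knockdowns. EPAS1, which encodes the hypoxia-inducible factor HIF-2alpha, had 41.3 and 78.6 in the NOTCH1 KD, 154 and 134 in the RBPJ KD, and 111 and 108 in the control. LBH, a transcriptional cofactor of limb and heart development, had 467 and 621 in the NOTCH1 KD, 859 and 928 in the RBPJ KD, and 664 and 809.9 in the control. KRT6A, a keratin of stratified epithelia, had 58.2 and 54.9 in the NOTCH1 KD, 121 and 352 in the RBPJ KD, and 90.8 and 107 in the control. For KRT6A 1 library decided the size of the difference. The log2 difference was -1.85 with both RBPJ KD libraries, -2.62 without replicate 1 and -1.08 without replicate 2.

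Among the genes that lay higher in the NOTCH1 KD, 2 belonged to the ULBP family, whose proteins resemble class I histocompatibility molecules and bind an activating receptor of natural killer cells. ULBP13 had 246 and 269 in the NOTCH1 KD, 158 and 127 in the RBPJ KD, and 222 and 207 in the control. ULBP21 had 81.6 and 123 against 41.5 and 24.7, with the control at 52.9 and 39.1. The family has near-identical copies in cattle, so how reads were shared among its members is uncertain. ZNF354B, a zinc finger protein, had 71.1 and 72.7 in the NOTCH1 KD, 28.9 and 27.5 in the RBPJ KD, and 49.0 and 46.7 in the control. The replicates of each group lay close together in this gene, and its log2 difference was 1.32, standard error 0.30 (limma, adjusted p = 0.768).

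STOM, SHROOM1 and SOWAHA lay higher in the NOTCH1 KD than in the other 4 libraries. STOM, which encodes the membrane protein stomatin, had 574 and 560.1 in the NOTCH1 KD, 384 and 377 in the RBPJ KD, and 397 and 405 in the control. SHROOM1, of a family of actin-binding proteins that shape epithelial cells, had 459 and 432 against 279 and 294, with the control at 277 and 238. SOWAHA, an ankyrin repeat protein, had 135 and 137 against 66.9 and 59.6. CYP4F2, a fatty acid hydroxylase, was instead low in the RBPJ KD, with 31.0 and 18.2 against 60.0 and 61.7 in the NOTCH1 KD and 90.3 and 68.4 in the control. FADS2, a fatty acid desaturase, had 689 and 589 in the NOTCH1 KD, 460.4 and 333 in the RBPJ KD, and 525 and 499.8 in the control. C16H1orf115 completed the list with a log2 difference of 0.58. Over the 19 genes other than RBPJ, limma's adjusted p lay between 0.22 and 0.914.

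**Figure D4:**
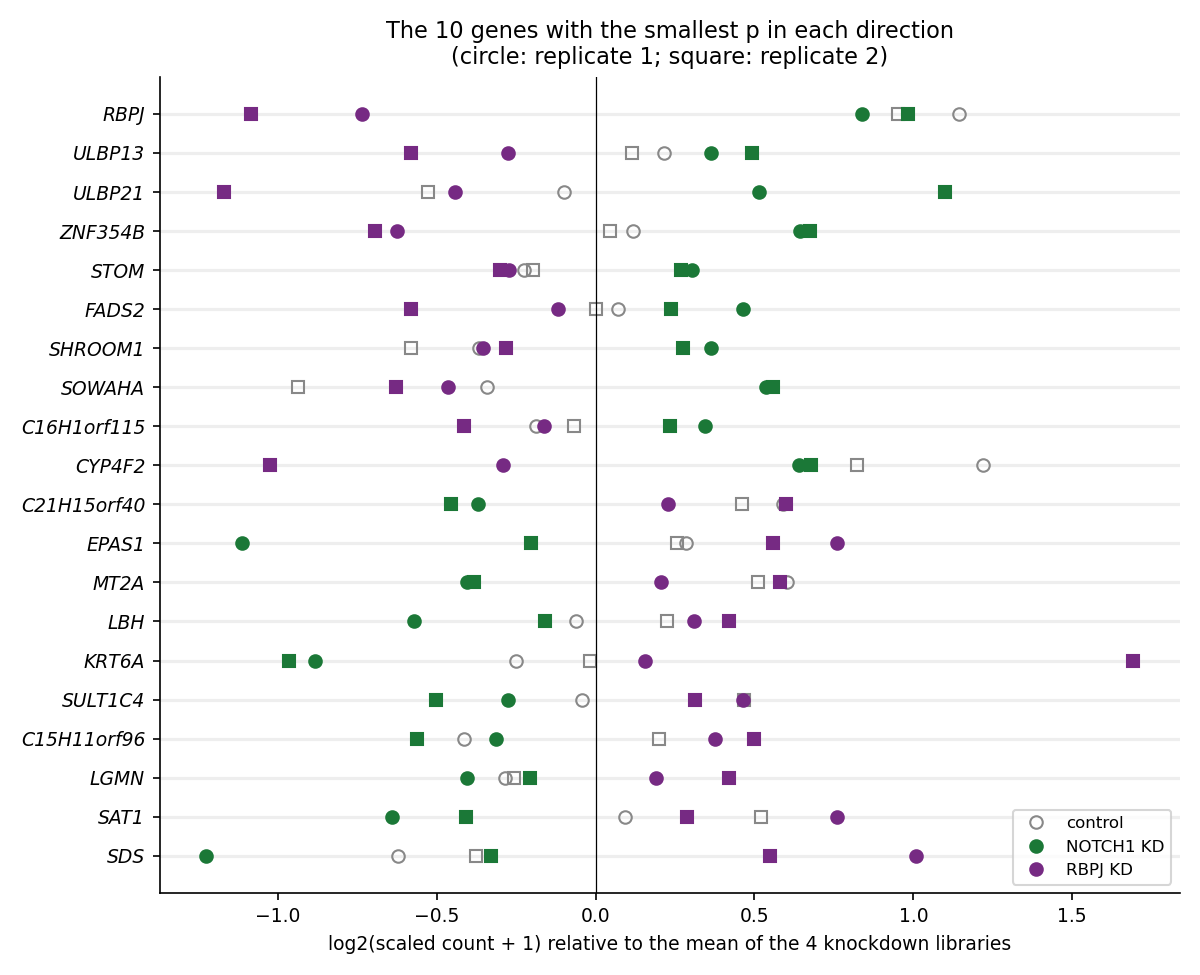
Log2(scaled count + 1) of each library relative to the mean of the 4 knockdown libraries (horizontal axis) for the 10 genes with the smallest p in each direction, with green for the NOTCH1 KD, purple for the RBPJ KD, open grey for the control, circles for replicate 1 and squares for replicate 2. The control lies with the NOTCH1 KD for LGMN, with the RBPJ KD for MT2A and SHROOM1, and between them for ZNF354B and EPAS1.

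Genes with the largest differences, among those with a mean of at least 100 and no overlap between groups, included 5 that were not among those with the smallest p. GATA3, described with the targets, was the first. GSTM3, a glutathione transferase, had 44.9 and 92.7 in the NOTCH1 KD, 162 and 143 in the RBPJ KD, and 159 and 166 in the control, a log2 difference of -1.23. CYP1A1, a cytochrome P450 enzyme that oxidizes aromatic compounds, had 81.7 and 87.2 in the NOTCH1 KD, 138 and 274 in the RBPJ KD, and 470.0 and 231 in the control. CEMIP, which takes part in hyaluronan breakdown, had 219 and 205 against 177 and 79.0, and SECISBP2L, a relative of a factor for selenoprotein synthesis, had 178 and 194 against 118 and 93.4. None of these was called (limma, adjusted p = 0.823 for GSTM3 and 0.999 for the others).

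CYP1A1 and MT2A belong to a list of 18 aryl hydrocarbon receptor and metallothionein genes, of which 13 were tested. By sign 5 were higher and 8 lower in the NOTCH1 KD, and the groups did not overlap in 7, all lower. Over all genes 52.7% were higher by sign, and 15.5% lay lower without overlap. The median was -0.31, it lay between -0.33 and -0.20 without each knockdown library in turn, and the medians of all 4 library pairs were negative. It was -0.09 over the members with a mean of at least 100. AHR, the receptor that binds dioxins and related compounds, had 27.6 and 19.4 in the NOTCH1 KD, 35.4 and 49.3 in the RBPJ KD, and 35.9 and 48.0 in the control. CYP1B1, another cytochrome P450 gene under its control, had 23.1 and 73.0 against 66.7 and 93.6. The dimerization partner ARNT had a log2 difference of 0.03. None of the members was called, and this list held members picked with earlier results in view.

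No lineage marker of the morula was called. Of 29 tested trophectoderm markers 19 were higher and 10 lower by sign, and the median was 0.11. The groups did not overlap in 5 with the NOTCH1 KD higher and 5 with it lower, close to the shares of 17.5% and 15.5% over all genes. The median ran from 0.06 without RBPJ KD replicate 2 to 0.24 without NOTCH1 KD replicate 2. By single library pairs it was -0.07 for NOTCH1 KD replicate 2 minus RBPJ KD replicate 1 and 0.12 to 0.15 in the others. CDX2 had 976 and 832 in the NOTCH1 KD, 682 and 624 in the RBPJ KD, and 654 and 744 in the control, a log2 difference of 0.47 (0.17 to 0.76). MSX2, a homeobox factor, had 1461 and 1307 against 1081 and 973, with the control at 1021 and 1085. In both genes, as in GATA3, the NOTCH1 KD libraries were the highest of the 6. TFAP2A lay the other way, with 6.37 and 8.63 against 8.90 and 27.7, while TFAP2C and TEAD4 had log2 differences of 0.11 and 0.05. The keratins KRT8 and KRT18 had 0.35 and 0.38 with overlapping groups. RBPJ KD replicate 1 reached the NOTCH1 KD values in both, while replicate 2 was their lowest library at 7578 and 5878.

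Of 23 tested inner cell mass and pluripotency markers 15 were higher and 8 lower by sign. Their median of 0.06 ran from 0.05 to 0.12 without each knockdown library. It was -0.02 for the single pair of NOTCH1 KD replicate 2 minus RBPJ KD replicate 1. POU5F1, NANOG and ESRRB had log2 differences of 0.15, -0.05 and 0.04. KLF2, a naive pluripotency factor, had 68.4 and 97.0 in the NOTCH1 KD and 105 and 220.0 in the RBPJ KD, a log2 difference of -0.89. DNMT3B, a DNA methyltransferase, had 2724 and 1529.5 against 1955 and 968, and its relative DNMT3A 3862 and 2854 against 2592 and 2107. In both methyltransferase genes replicate 1 lay above replicate 2 in each knockdown. The 26 tested genes of the hypoblast list, which also holds DPPA2, a gene that is not a hypoblast marker, were 13 higher and 13 lower by sign, with a median of -0.00. HNF4A, a nuclear receptor of endoderm, had 35.8 and 40.9 in the NOTCH1 KD, 10.8 and 9.24 in the RBPJ KD, and 10.6 and 26.2 in the control, a log2 difference of 1.84 with a standard error of 0.50. LAMA1, which encodes a chain of laminin, had 792 and 654 against 620.3 and 317. The hypoblast factors SOX17, FOXA2 and GATA4 had -0.45, -0.48 and -0.14, and GATA6 had 0.01. None of these markers was called (limma, adjusted p = 0.999 for HNF4A).

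Oocyte and maternal transcripts, which the embryo inherits and degrades, had a difference that depended on the NOTCH1 KD library used. Of 34 tested members 10 were higher and 24 lower by sign, and the median of -0.12 ran from -0.47 without NOTCH1 KD replicate 2 to 0.08 without NOTCH1 KD replicate 1. The members with the smallest p were NLRP13, DPPA3 and CNOT6L, at log2 differences of 0.74, 0.23 and -0.29, and none was called. BTG4, which helps to remove maternal transcripts, had 11.2 and 63.7 in the NOTCH1 KD and 17.7 and 124 in the RBPJ KD. H1FOO, the linker histone of the oocyte, had 1.04 and 17.1 against 7.06 and 23.4. In BTG4 and H1FOO replicate 1 was the lower library of each knockdown. Among members with a mean of at least 100 the median was -0.02. The 9 tested embryonic genome activation markers had a median of -0.03, which ran from -0.16 without RBPJ KD replicate 1 to 0.12 without RBPJ KD replicate 2.

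Junction, polarity and fluid transport genes, which build the epithelium of the outer cells, lay slightly higher in the NOTCH1 KD for most members. Of 53 tested members of 55, 42 were higher and 11 lower by sign, and the groups did not overlap in 16 and 3. Over all genes 52.7% were higher by sign, and the groups did not overlap in 17.5% and 15.5%. A mean of at least 1000 was seen in 32 members, and these shares moved with level, as given below. The median was 0.10 and positive in all 4 library pairs. It ran from 0.04 without NOTCH1 KD replicate 1 to 0.17 without NOTCH1 KD replicate 2. DSP, the desmosome protein desmoplakin, had 2538 and 2360.0 in the NOTCH1 KD, 1964 and 1733 in the RBPJ KD, and 1777 and 1781 in the control. CGN, the tight junction protein cingulin, had 1727 and 1653 against 1437 and 1208, with the control at 1517 and 1619.6. The desmosome and adherens junction protein JUP had 5349 and 4228 against 4143 and 3335. MYH14, a nonmuscle myosin heavy chain, was a marked exception, with 50.1 and 43.1 in the NOTCH1 KD, 118 and 106 in the RBPJ KD, and 32.7 and 51.3 in the control, a log2 difference of -1.25. The central components CDH1, CTNNB1 and TJP1 had 0.05, 0.04 and 0.03. No member was called (limma, adjusted p = 0.823 for MYH14 and 0.956 for DSP).

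Several lists of growth genes shared a small positive median. Ribosomal protein genes were higher by sign in 70 of 76 cases, with a median of 0.08, and 36 of them lay without overlap above the RBPJ KD. Over all genes 52.7% were higher by sign, and 17.5% lay without overlap above the RBPJ KD. Nuclear oxidative phosphorylation genes were higher in 56 of 63 cases (median 0.10), DNA replication genes in 40 of 50 (median 0.10), and G2 and mitosis genes in 41 of 52 (median 0.08). The mitotic genes UBE2C and CDC20 had log2 differences of 0.26 and 0.23, and LIG1, the replicative DNA ligase, had 0.23. No member of these 4 lists was called.

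The level of a gene moved with these medians. Over all genes the median log2 difference was -0.07 at a mean of 10 to under 100 and 0.01 at 100 to under 1000, 0.03 at 1000 to under 3000, 0.05 at 3000 to under 10000 and 0.07 from 10000 upward. The share of genes without overlap above the RBPJ KD went from 13.4% in the lowest class to 27.9% at 3000 to under 10000 and 32.5% at the top. The share higher by sign was 43.2%, 72.8% and 80.5% in the same 3 classes. The upper 2 of these held 55 and 11 of the ribosomal protein genes. After quantile normalization the medians of all 5 classes lay between -0.004 and 0.003. That of the ribosomal protein genes became 0.03, that of oxidative phosphorylation genes 0.06, and those of mitosis, replication and junction genes 0.06, 0.09 and 0.07. The part of the level in these lists was not otherwise tested. Without NOTCH1 KD replicate 1 the ribosomal, oxidative phosphorylation and replication medians were 0.03, 0.04 and 0.04, and without its replicate 2 they were 0.14, 0.18 and 0.15.

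**Figure D5:**
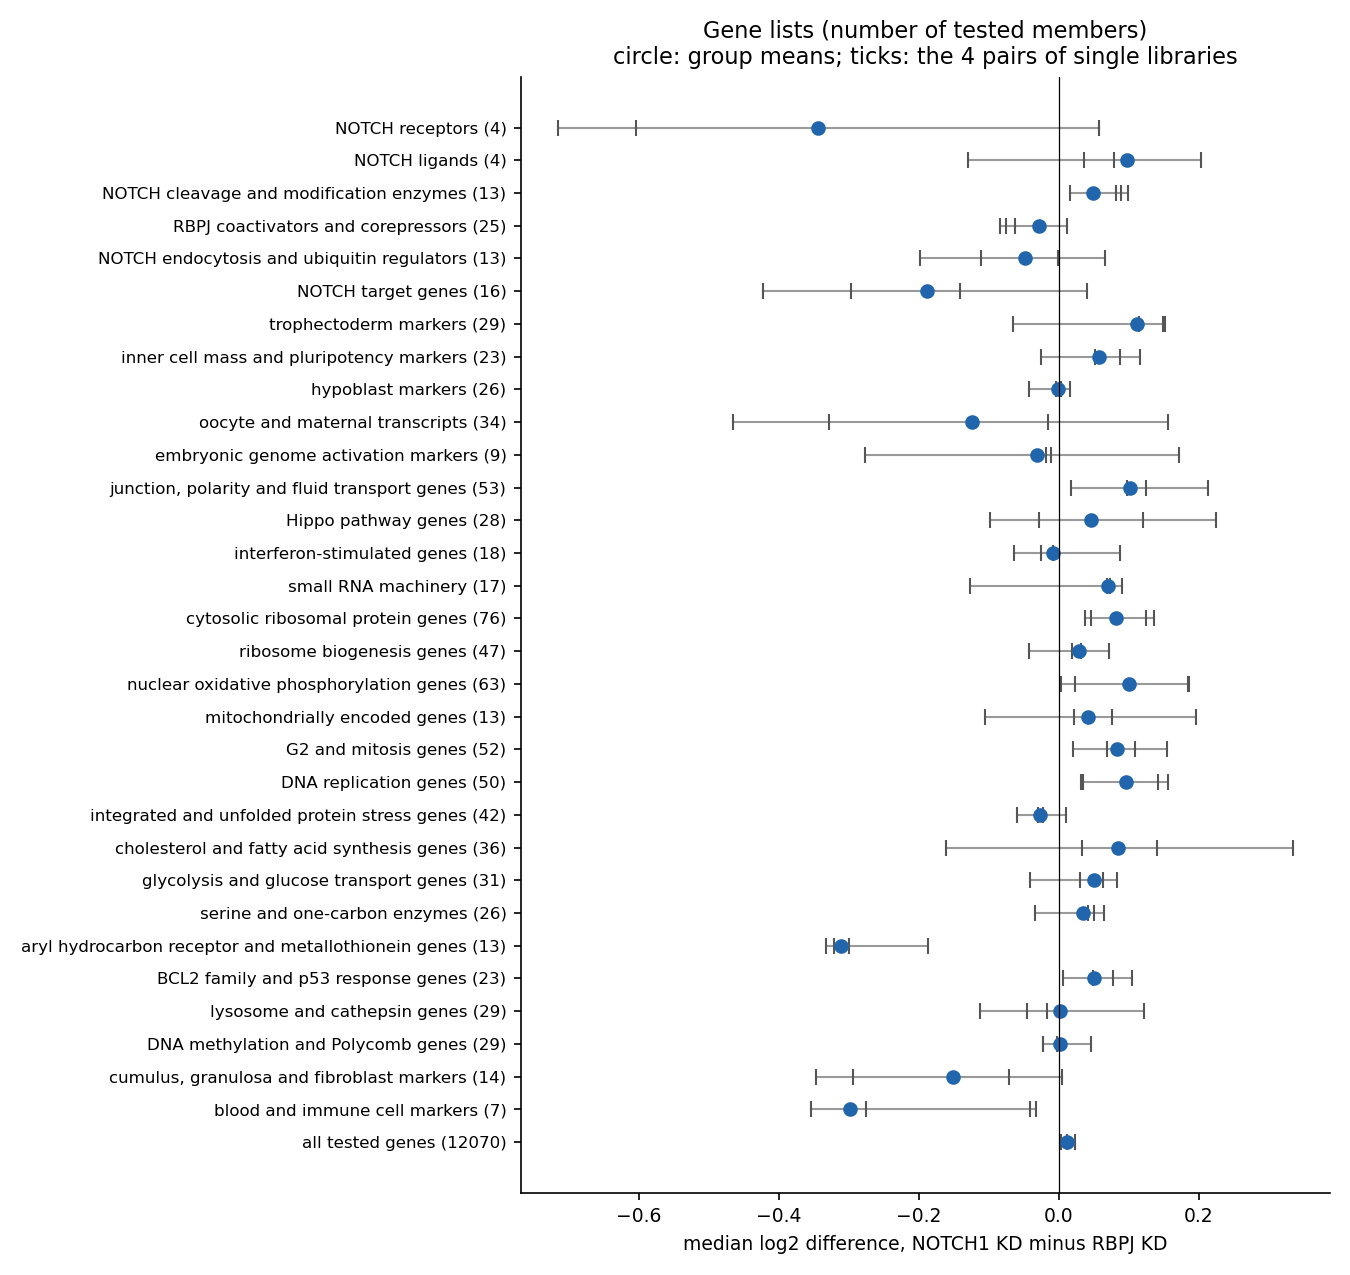
Median log2 difference, NOTCH1 KD minus RBPJ KD (horizontal axis), of the tested members of each of the 31 gene lists and of all 12070 genes, with the number of tested members in parentheses, a circle for the group means and ticks for the 4 pairs of single libraries. The list of aryl hydrocarbon receptor and metallothionein genes lies below 0 in every pair at a median of -0.31, and the ribosomal protein genes lie above 0 at 0.08.

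The remaining lists lay close to the value over all genes or went with single libraries. The 42 stress response genes had a median of -0.03, lysosome and cathepsin genes 0.00 over 29, and DNA methylation and Polycomb genes 0.00 over 29. The 36 genes of cholesterol and fatty acid synthesis had a median of 0.08, which was -0.07 without NOTCH1 KD replicate 1 and 0.26 without its replicate 2. The Hippo pathway, which reads cell position in the morula, had a median of 0.05 over 28 genes, which was -0.09 without RBPJ KD replicate 2 and 0.15 without its replicate 1. Its member VGLL4, a competitor of the coactivator YAP, had 523 and 469 in the NOTCH1 KD, 691 and 672 in the RBPJ KD, and 629 and 631 in the control. Glycolysis genes had a median of 0.05 over 31 members (-0.01 without NOTCH1 KD replicate 1), with LDHA at 0.48 and the regulator PFKFB3 at -0.71. Serine and one-carbon enzymes other than SDS included SHMT1, with 93.0 and 99.1 against 36.9 and 78.0, and had a median of 0.03 over 26 members (-0.01 without RBPJ KD replicate 2). Mitochondrially encoded genes had a median of 0.04, which was -0.04 without RBPJ KD replicate 2. Ribosome biogenesis genes had 0.03 (-0.005 without RBPJ KD replicate 1), and BCL2 family and p53 response genes 0.05. The medians of the stress, lysosome, and DNA methylation and Polycomb lists also changed sign without single libraries, within -0.06 to 0.03.

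Since both groups received a small interfering RNA, genes that respond to double-stranded RNA were examined as well. The 18 tested interferon-stimulated genes of 39 listed were 8 higher and 10 lower by sign, with a median of -0.01 that ran from -0.10 to 0.02 without single knockdown libraries. IRF7, a regulator of the interferon response, had 707 and 608 in the NOTCH1 KD and 466 and 559 in the RBPJ KD, and HERC5 lay the other way at a log2 difference of -0.41. The 17 genes of the small RNA machinery had a median of 0.07, which was -0.02 without NOTCH1 KD replicate 1 and -0.01 without RBPJ KD replicate 2. AGO2, the Argonaute that cuts targets of small interfering RNAs, had 847 and 710.1 in the NOTCH1 KD, 907 and 947 in the RBPJ KD, and 909 and 879 in the control, a log2 difference of -0.26 with an interval of -0.53 to 0.02.

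Markers of other cells that the samples could hold were measured in both knockdowns. Of 23 cumulus, granulosa and fibroblast markers 14 were tested, 2 higher and 12 lower by sign, with a median of -0.15 that ran from -0.49 without NOTCH1 KD replicate 2 to -0.01 without its replicate 1. Their summed level was 929.5 and 1110 in the NOTCH1 KD, 1118 and 1112 in the RBPJ KD, and 1032 and 1134 in the control. TNFAIP6 and HAS2, expressed by cumulus cells, had means below 10 and were not tested. They lay between 0 and 10.9 in all libraries except 15.0 for TNFAIP6 in control replicate 2. Of the tested members, LHCGR lay between 52.2 and 89.8 and INHBA between 27.6 and 54.6 in all libraries. Of 23 blood and immune markers 7 were tested, 3 higher and 4 lower by sign, with summed levels of 2167 and 2663 in the NOTCH1 KD and 2557 and 3085 in the RBPJ KD. Most of that sum came from CSF1R, at 843 and 976 against 1187 and 1413, and from HBA, at 1067 and 1379.6 against 1052 and 1366. The leukocyte marker PTPRC lay between 0 and 11.3, and the T cell marker CD3E between 0 and 3.27.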

How the data were processed

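Polyadenylated RNA of 6 pools of 15 bovine late morulae was sequenced. The submitters' processing notes name the build ARS-UCD1.2, DESeq2 and Salmon 0.14.1 without their roles. The annotation is not given in the sources used here. The deposited signal is 1 value per gene and library, judged from the values to be estimated counts divided by the authors' scaling factors. Of the low values, 80.4% to 83.8% lay within 0.1 of a multiple of 1 step per library, too few to recover whole reads, so no count test was run. The 2551 rows without a gene name (between 6.20% and 7.22% of the library totals) did not enter, and for 31 repeated symbols the row with the higher mean was kept. The spike-in RNAs were not used here. Overlapping, antisense and near-identical genes may share reads.

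Values were analysed as log2(value + 1), which understates changes of low genes, with limma 3.58.1 (R 4.3.3). The model had a mean for each group of the 6 libraries and 3 residual degrees of freedom. Its variances were moderated along a trend on level. The fit was tested on simulated data. Python 3.11.15 with matplotlib 3.10.9 drew the figures.

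The genes compared and the 31 lists were chosen with earlier results of these data known. The rule for naming took the targeted and called genes, the 10 smallest p per direction, and all tested receptors, ligands and targets. It also took the 5 largest differences per direction among genes averaging at least 100 without overlap, and the 3 smallest p of every other list. Not all genes taken by the rule are printed here. HES6, TEAD3, AMOT and KDM4B are among those left out. Other members named for their role were chosen after their values were seen. Each result was recomputed without each library, with the replicate number as a block, from the 4 knockdown libraries alone, after quantile normalization or scaling by median of ratios, at pseudocounts of 0.1 and 10, at a minimum mean of 100 or none, with robust moderation or no trend, and at other thresholds.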

Additional observations from a re-analysis of the deposited data

Results flagged for a closer look

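RBPJ differed between the knockdowns by the test of the difference itself, at a log2 difference of 1.82 (limma, adjusted p = 0.00321), and it is the gene targeted in the RBPJ KD.

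In 13 other named genes both libraries of a knockdown lay above both controls and both libraries of the other knockdown lay below both. Such an arrangement was seen in 105 of all tested genes (0.87%) with the NOTCH1 KD above the control and in 86 (0.713%) with it below. The rule named 125 genes, many of them by their p or lack of overlap in this same contrast. Separated knockdowns are therefore built in for many named genes, and their share cannot be set against that over all genes. This order against the control was not tested, and none of the 13 passed the comparison of the knockdowns (limma, adjusted p = 0.677 to 0.999). The NOTCH1 KD lay above in ZNF354B (log2 difference 1.32), ULBP13 (0.86), FADS2 (0.70), STOM (0.57), SLC2A3 (0.26), CDC20 (0.23), UQCRC1 (0.21) and ATP5F1C (0.18). SLC2A3 is a glucose transporter, and UQCRC1 and ATP5F1C are subunits of the respiratory chain and of ATP synthase. The NOTCH1 KD lay below in KRT6A (-1.85), EPAS1 (-1.32), LBH (-0.73), VGLL4 (-0.46) and KYAT1 (-0.28).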

How the results depend on the processing

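RBPJ was the single called gene under both pseudocounts, no filter, a minimum mean of 100, both other scalings, only the 4 knockdown libraries and the robust option. Without a trend 0 genes were called, beside 538 at an unadjusted p below 0.05. Without single libraries 0 to 3 genes were called. At an unadjusted p below 0.05 there were 439 genes, 291 at a minimum mean of 100, and 228 to 587 without single libraries. With the replicate number as a block 15 genes were called (877 unadjusted), 4 higher (RBPJ, GATA3, FADS2 and DNMT3A) and 11 lower (SDS, SAT1, LGMN, KRT6A, EPAS1, LBH, SULT1C4, C15H11orf96, HSPA1A, IL2RG and DUSP8), with limma's adjusted p at 3.47e-06 for RBPJ, 0.000424 for SDS and 0.00585 to 0.0444 for the others. The block with only the 4 knockdown libraries left 1 residual degree of freedom and called 179 (1303 unadjusted). The labels do not say that a number marks a shared batch, and same-numbered libraries deviated together with correlations of 0.167 to 0.213 over genes. Of the values of named genes under alternatives 2013 kept their direction and side of the threshold, 57 newly passed it, 3 no longer passed (all RBPJ) and 17 turned sign. The direction could not change under either filter, the blocks, no trend, robust moderation, the 4 knockdown libraries alone or an omitted control library. Those settings leave the log2 difference as it was by construction, so part of the kept directions was fixed in advance. ATP6 was -0.0265 after quantile normalization. Over omitted libraries the log2 difference ran from -0.0230 to 0.986 for APH1B, -0.0530 to 0.243 for ATP8, -0.10 to 0.83 for CCND1, -0.11 to 0.90 for CD68, -0.708 to 0.0646 for CDKN1A, -0.308 to 0.0752 for DLK2, -0.11 to 0.34 for DLL3, -0.00167 to 0.117 for HES1, -2.59 to 0.18 for HES7, -0.0528 to 0.485 for HEYL, -0.99 to 1.17 for ID3, -0.83 to 0.74 for NOTCH3, -0.0260 to 0.152 for NOTCH4 and -0.182 to 0.0893 for TCF3. The ratio of median distances between and within groups lay between 0.966 and 0.978, while that of the numbers of genes over 2-fold apart lay between 1.04 and 1.32. They have no value without a library, since a pair within a group is then missing. No count-based alternative was run.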
